A study of Mus musculus with 9 samples.

Results

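The 10 genes described here encode granule enzymes, other proteins of myeloid cells and transcription factors of myeloid differentiation. They are Mpo, Elane, Ctsg, Prtn3, Ms4a3, S100a8, S100a9, Cebpa, Cebpe and Irf8. They were chosen by symbol from the 31053 genes of the count matrices, with earlier results of these data known, and each symbol matched 1 gene. The question was how their transcripts differed between young mice, aged mice and aged mice given CASIN, an inhibitor of the activity of the small GTPase Cdc42, and whether such differences lay in multipotent cells or in the few cells already committed to a myeloid fate.

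The cells were LSK cells (lineage-negative, cKit+, Sca1+) sorted from the bone marrow of C57BL/6 mice, frozen viable and thawed before single-cell RNA sequencing with 10x Genomics 3′ v3 chemistry. Young mice were 10 to 12 weeks old and aged mice were over 80 weeks old. CASIN mice were aged mice that received 25 mg/kg of CASIN by intraperitoneal injection, 4 times at intervals of 24 h, and were harvested on day 5, whereas young and aged controls received the vehicle cyclodextrin. Each group had 3 samples of 1 library each, and the labels gave 2 sequencing batches, the first with young 1, young 2, aged 1, CASIN 1 and CASIN 2, the second with young 3, aged 2, aged 3 and CASIN 3.

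In bone marrow, neutrophil and monocyte precursors pack serine proteases and myeloperoxidase into azurophil granules. Mpo makes hypochlorous acid from hydrogen peroxide, whereas Elane (neutrophil elastase), Prtn3 (proteinase 3) and Ctsg (cathepsin G) are related serine proteases. C/EBPα opens the granulocyte programme, C/EBPε drives its later steps, and IRF8 favours monocyte and dendritic cells. Multipotent progenitors can hold low amounts of such transcripts before any commitment, which is called lineage priming.

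Of 32387 barcodes, 15856 cells passed the quality limits, with 1112 to 2417 cells and 17555578 to 35118707 UMIs (unique molecular identifiers, each counted as 1 transcript) per sample and a median of 9531.5 to 14622 UMIs per cell. No pair of libraries shared more than 16 barcodes. Kit was found in 78.4% of cells and Ly6a, which encodes Sca1, in 67.9%, while the lineage genes Ly6g and Cd8a were found in 0.0126% and 0.00631%. Ptprc, whose product B220 is a lineage marker in 1 splice form only, was found in 75.6%, Itgam in 8.44% and Cd5 in 1.15%. The cells fell into 18 clusters, made without the 10 genes and without genes that differed between groups. From fixed markers, 3 clusters were called HSC-like (2692 cells), 3 LMPP-like, for lymphoid-primed multipotent progenitors (4859 cells), and 2 committed (204 cells), and the other 10 were pooled as other uncommitted cells (8101 cells). Of the HSC-like clusters, those led by Fos (990 cells) and by Dennd5b (152 cells) held 14.1% and 2.63% of their cells from batch 2. A median HSC-like cell had 9880 UMIs and a median LMPP-like cell 13158. LMPP-like cells were 829, 832 and 375 of the 2151, 2203 and 1201 cells of young 1, 2 and 3. They were 359, 509 and 541 of 1561, 1679 and 1740 in aged and 317, 568 and 529 of 1112, 1792 and 2417 in CASIN 1, 2 and 3. HSC-like cells numbered 312, 307 and 119 in young, 439, 225 and 204 in aged and 284, 404 and 398 in CASIN samples. The part of this mix in levels over all LSK cells was not tested. The labels do not say whether samples came from separate mice, so p-values measure only the spread between these samples.

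Elane and Prtn3 are neighbours on chromosome 10, with 3072 bases between the annotated genes: Prtn3 lies at chr10:79874476-79883174 and Elane at chr10:79886247-79888215, both on the plus strand of GRCm38 (mm10). Mpo lies on the plus strand at chr11:87793581-87804413. The promoters of these granule enzymes are shown because the enzymes are packed in the same granules, whereas their transcripts were distributed over the LSK cells in very different ways. RefSeq windows of 300 bases on GRCm38.p6, from 250 before to 50 after the start of transcription, are printed from 5′ to 3′. Capitals mark GAGGAAGT, which holds the GGAA core bound by ETS factors such as PU.1, and AACGG, a core bound by MYB. Both motifs were chosen after the sequences were seen. The windows lie at chr10:79879417-79879716 for Prtn3, chr10:79886062-79886361 for Elane and chr11:87793534-87793833 for Mpo. The RefSeq starts are not the starts of the gene intervals given above, and the Prtn3 window lies wholly inside its interval. Distances of motifs are from the RefSeq start only.
Prtn3: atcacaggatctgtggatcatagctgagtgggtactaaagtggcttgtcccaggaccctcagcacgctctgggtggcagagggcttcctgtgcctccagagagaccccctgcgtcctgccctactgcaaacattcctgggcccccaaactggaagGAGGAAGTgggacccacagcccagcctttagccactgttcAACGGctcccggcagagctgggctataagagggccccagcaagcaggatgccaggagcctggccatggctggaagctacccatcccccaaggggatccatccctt
Elane: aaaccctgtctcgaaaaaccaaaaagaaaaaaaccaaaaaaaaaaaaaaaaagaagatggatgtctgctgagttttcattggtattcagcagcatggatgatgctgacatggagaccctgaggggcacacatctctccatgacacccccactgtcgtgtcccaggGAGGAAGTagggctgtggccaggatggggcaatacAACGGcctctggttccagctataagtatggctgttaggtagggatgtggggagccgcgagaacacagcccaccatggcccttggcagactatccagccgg
Mpo: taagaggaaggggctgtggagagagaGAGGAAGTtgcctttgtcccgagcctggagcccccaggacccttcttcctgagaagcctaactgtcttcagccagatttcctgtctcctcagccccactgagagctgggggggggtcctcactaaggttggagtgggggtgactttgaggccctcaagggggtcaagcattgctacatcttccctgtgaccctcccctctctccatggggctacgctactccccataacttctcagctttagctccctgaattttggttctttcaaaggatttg

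Prtn3 and Elane had the same order of motifs at nearly the same distance from the RefSeq start. GAGGAAGT began at -95 in Prtn3 and at -85 in Elane, and AACGG began at -55 and at -50. The Mpo window held GAGGAAGT at -224 and no forward AACGG. On either strand, GAGGAAGT was found in 3.28% of 27025 promoter windows of the same length, AACGG in 17.7%, and both in 0.418%. Windows were found for 9 of the 10 genes, all but Cebpe. Over the 9 windows and both strands, GAGGAAGT was in those of Mpo, Elane, Prtn3 and S100a8 and AACGG in those of Elane, Prtn3 and Cebpa, and neither was in those of Ctsg, Ms4a3, S100a9 and Irf8. A match is a description of letters, and no binding was measured.

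The 10 genes differed first of all in which cells held their transcripts. The 204 committed cells were 1.29% of the cells and held 1.32% of all UMIs. They held 96.7% of the UMIs of Elane, 92.9% of those of S100a8 and 91.6% of those of S100a9, the subunits of calprotectin, a calcium-binding cytosolic protein of neutrophils. They held 72.6% of the UMIs of Ms4a3, a membrane protein of granulocyte-monocyte progenitors, and 70.1% of those of Cebpe. The shares were intermediate for Ctsg (37.4%), Mpo (35.6%) and Irf8 (23.1%). Only 10.4% of Prtn3 UMIs and 3.56% of Cebpa UMIs were in committed cells, so a level of Prtn3 or Cebpa over all LSK cells was mostly a level in uncommitted cells.

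The upper quality limits (6000 genes, 40000 UMIs) also bore on the genes of committed cells. They removed 269 barcodes, which held 4.61% of all deposited UMIs but 60.7% of those of Elane, 58.2% of Ms4a3, 45.8% of Cebpe, 41.6% of Ctsg and 32.4% of Mpo. The removed barcodes held 16.7% of the UMIs of Prtn3 and 6.69% of those of Cebpa. Of these barcodes, 51 had at least 3 of the late genes Elane, Ctsg, Ms4a3, Cebpe, S100a8 and S100a9, with a median of 53344 UMIs. Levels of Elane, Ms4a3 and Cebpe over all LSK cells thus depended on those limits, which are the study's. The limit on mitochondrial reads removed 15772 barcodes with 19.0% of all UMIs. Under all limits together, each batch 2 sample kept a smaller share of its barcodes than each batch 1 sample. The highest share in batch 2 was 1201 of 3124 barcodes (young 3). The lowest in batch 1 was 1112 of 1972 (CASIN 1). The median mitochondrial percent of kept cells was 5.03 to 6.9968 in batch 2 samples and 2.65 to 3.49 in batch 1 samples. The part of this in differences between the batches was not tested.

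**Figure D1:**
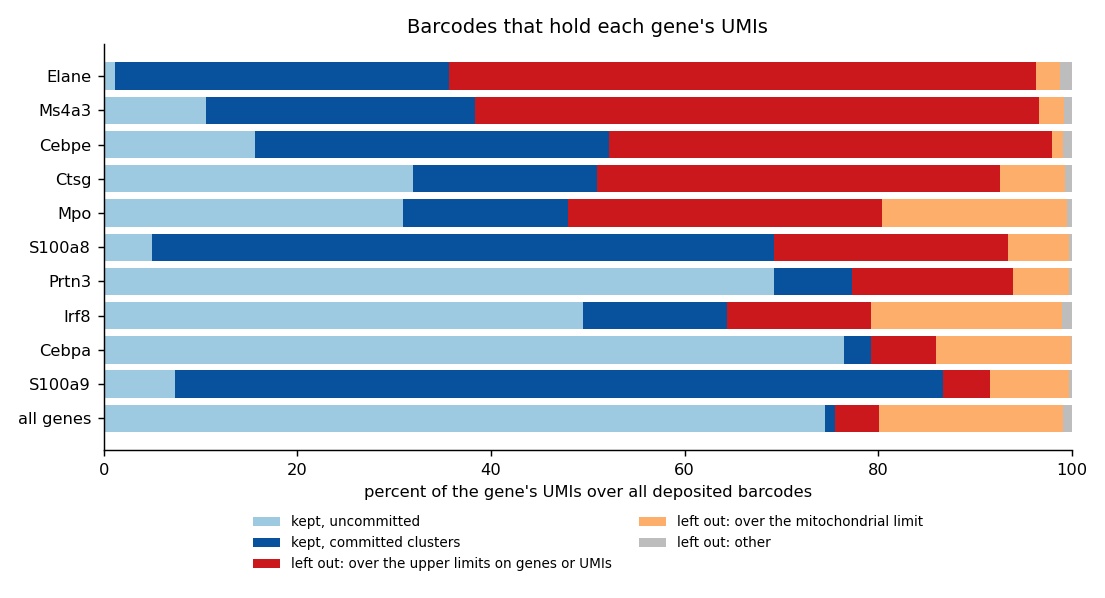
Percent of each gene's UMIs over all deposited barcodes (x axis) that lay in kept uncommitted cells, kept committed cells, barcodes over the upper limits, barcodes over the mitochondrial limit and other removed barcodes, with all genes together at the bottom. Barcodes over the upper limits hold 60.7% of Elane UMIs and 4.61% of the UMIs of all genes.

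Levels are given in CPM, the UMIs of a gene over all UMIs of the same cells, scaled to a common total. Of the 2 committed clusters, the cluster led by Elane (110 cells, median 1967 UMIs) also held Mcpt8, a basophil gene, and had 8042 CPM of Elane, 7328 CPM of Prtn3, 5728 CPM of Mpo, 4372 CPM of Ctsg, 4145 CPM of S100a8 and 1007 CPM of Ms4a3. The other, led by Ly6c2 (94 cells, median 12423 UMIs), also held Xcl1, Cd79a and Iglc2, which are genes of lymphoid and dendritic cells. Its level of Irf8 was 806 CPM, with a UMI in 71.3% of its cells, and its level of Prtn3 was 1380 CPM. These levels are descriptions of clusters that were found from the same cells.

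Prtn3 was the member most widely found in multipotent cells, and its level in HSC-like cells was higher in aged and CASIN mice than in young mice. In HSC-like cells, Prtn3 stood at 567, 709 and 182 CPM in young 1, 2 and 3. It stood at 1158, 345 and 312 CPM in aged 1, 2 and 3, and at 1078, 1196 and 376 CPM in CASIN 1, 2 and 3. All 4 samples of batch 2 were below all 5 samples of batch 1, so the groups overlapped over the batches, whereas within each batch every aged and CASIN sample was above every young sample. For young, aged and CASIN mice the means were 486 ± 273, 605 ± 479 and 884 ± 443 CPM (SD, n = 3), spreads that contain the step between the batches.

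With the batch as a term in edgeR's quasi-likelihood test, Prtn3 in HSC-like cells rose in aged over young mice by 0.89 (log2, SE 0.12, adjusted p = 0.000469) and in CASIN over young mice by 0.96 (SE 0.12, adjusted p = 0.000133). The difference within batch 1 was 0.86 for aged and 0.83 for CASIN mice, and within batch 2 it was 0.86 and 1.05. CASIN and aged mice differed by 0.07 (SE 0.12, adjusted p = 1 after rounding), so no change with CASIN was found. The megakaryocyte-like cells, used as the background below, moved the same way within both batches. Prtn3 stood there at 387, 472 and 113 CPM in young 1, 2 and 3. It stood at 768, 188 and 134 CPM in aged 1, 2 and 3, and at 622, 521 and 154 CPM in CASIN 1, 2 and 3. No test was made in these cells, and their part in the HSC-like change was not tested. Of the 10 genes, 7 had enough counts for a test in HSC-like cells, and Prtn3 was the only one of them to pass between aged and young mice, where 8.09% of all genes tested passed (5.84% higher and 2.25% lower). Between CASIN and young mice, 12.3% of all genes passed (7.62% higher and 4.69% lower), and of the 7 members 1 rose and 3 fell.

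In LMPP-like cells no such difference was found for Prtn3. Its levels were 456, 527 and 309 CPM in young 1, 2 and 3, 678, 268 and 298 CPM in aged 1, 2 and 3, and 585, 606 and 269 CPM in CASIN 1, 2 and 3. The aged and CASIN samples were above the young samples within batch 1 and below young 3 within batch 2. The log2 difference was 0.22 (SE 0.13, adjusted p = 0.547) for aged against young mice and 0.13 (SE 0.12, adjusted p = 0.873) for CASIN against young mice. None of the 9 members tested in LMPP-like cells passed in any comparison, and 0.35% and 0.145% of all genes passed in aged and in CASIN against young mice. At an unadjusted p under 0.05, 2 of the 9 differed between aged and young mice, where 11.4% of all genes did, and 2 between CASIN and young mice, where 7.47% did.

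Over other uncommitted cells, Prtn3 was at 495, 557 and 274 CPM in young, 930, 278 and 271 CPM in aged and 713, 812 and 262 CPM in CASIN 1, 2 and 3. The aged and CASIN samples were above the young samples in batch 1 and level with young 3 in batch 2. The log2 difference from young mice was 0.44 (SE 0.15, adjusted p = 0.150) in aged and 0.31 (SE 0.15, adjusted p = 0.262) in CASIN mice. None of the 9 members tested there passed, where 3.31% and 3.47% of all genes did, and 2 members in each comparison had an unadjusted p under 0.05, as had 20.5% and 23.4% of all genes. Over all LSK cells Prtn3 rose in aged mice by 0.64 (SE 0.14, adjusted p = 0.0369 in edgeR), the 1 call among 10 members, where 4.1% of all genes passed. This call was lost when the committed cells were left out (0.45, adjusted p = 0.116) and when barcodes over the upper limits were kept in (0.29, adjusted p = 0.607). It was also lost without any 1 of young 1, young 2, aged 1, aged 2, CASIN 1 and CASIN 3 (0.52 to 0.65, adjusted p = 0.0523 to 0.155). CASIN against young mice gave 0.41 for Prtn3 (SE 0.13, adjusted p = 0.110), and none of 10 members passed there, where 4.27% of all genes did and 2 members had an unadjusted p under 0.05, as had 24.0% of all genes. Without young 3, Prtn3 passed in CASIN mice over all LSK cells (0.59, adjusted p = 0.0229) and in other uncommitted cells of aged (0.75, adjusted p = 0.00974) and CASIN mice (0.55, adjusted p = 0.0177).

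The size of the Prtn3 change in HSC-like cells was set against that in LMPP-like cells within each sample. The log2 level in HSC-like minus that in LMPP-like cells was 0.30, 0.40 and -0.82 in young 1, 2 and 3, 0.82, 0.37 and 0.05 in aged 1, 2 and 3, and 0.93, 0.95 and 0.55 in CASIN 1, 2 and 3. In CASIN samples Prtn3 was thus higher in HSC-like than in LMPP-like cells in 3 of 3 samples, and young 3 was the only sample in which it was lower. With the batch as a term, the difference between classes in the change with age was 0.69 (SE 0.19, limma adjusted p = 0.262) and that between CASIN and young mice was 0.85 (SE 0.18, adjusted p = 0.103). Neither passed over the 10903 genes tested, of which 0% and 0.0642% did (0 and 7 genes), so it was not shown that Prtn3 changed more in HSC-like than in LMPP-like cells.

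**Figure D2:**
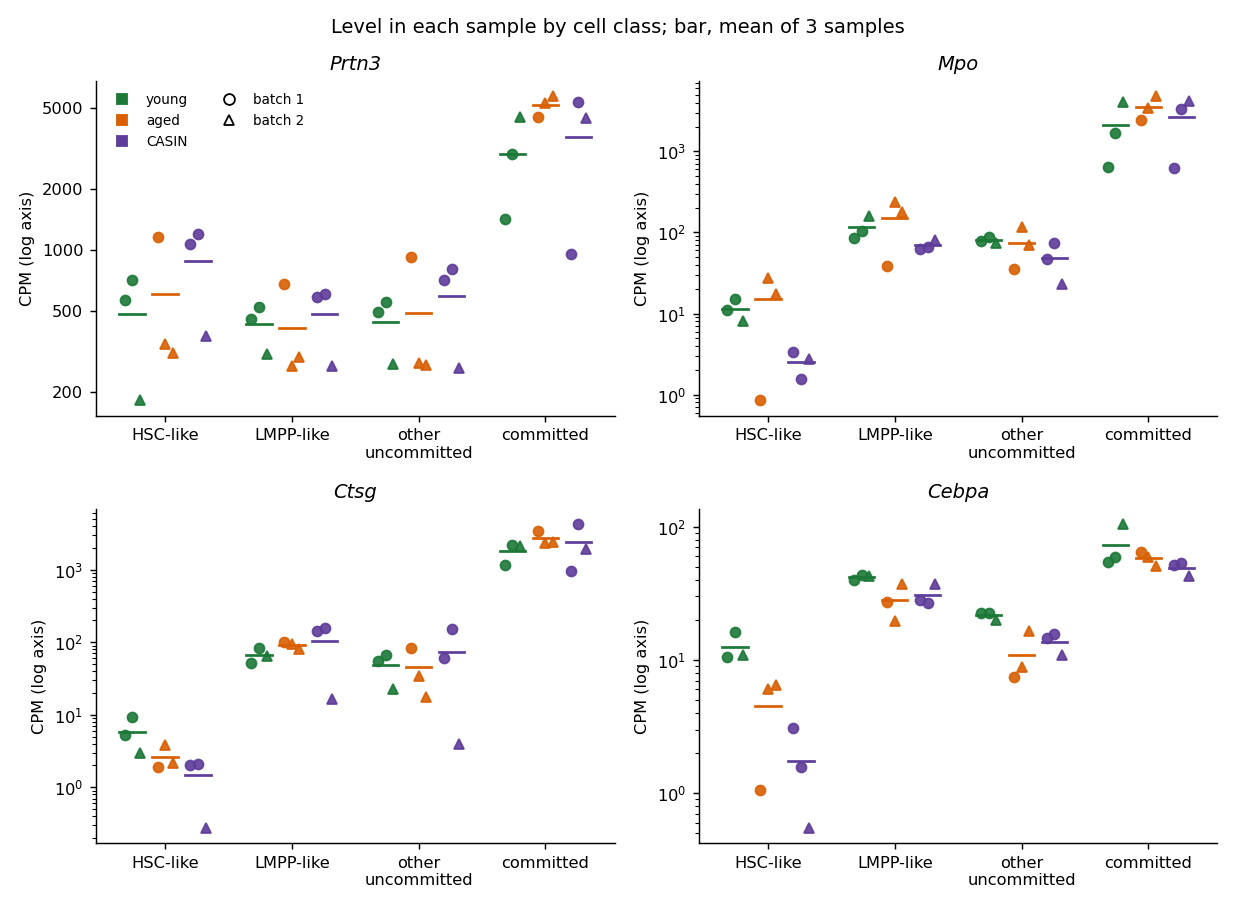
Level of Prtn3, Mpo, Ctsg and Cebpa in every sample, in CPM on log axes, in HSC-like, LMPP-like, other uncommitted and committed cells, with colours for groups, circles for batch 1, triangles for batch 2 and bars for the mean of 3 samples. In HSC-like cells Prtn3 of young 3 stands at 182 CPM, below the 312 to 376 CPM of the other batch 2 samples.

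Other markers moved in the HSC-like cells as well. Their summed HSC marker level was 3678 to 5504 CPM in young, 5441 to 8510 CPM in aged and 6865 to 8456 CPM in CASIN samples. Over all cells, Ifitm1 and Ifitm3 had the most UMIs of this list (215282 and 186933), ahead of Apoe (72195). They were found in 95.7% and 98.0% of all cells, so this sum does not follow stem cell genes alone. The LMPP marker list ran the other way, with 1110 to 2404 CPM in young, 919 to 1112 CPM in aged and 706 to 1209 CPM in CASIN samples. The cycling list was at 249 to 364 CPM in young, 43.2 to 286 CPM in aged and 51.8 to 102 CPM in CASIN samples, and a list of granulocyte and monocyte genes without the members at 495 to 701, 563 to 623 and 503 to 601 CPM. The part of these markers in the changes of the 10 genes was not tested. In sums of this kind fewer cells with a transcript and fewer transcripts per cell cannot be told apart, for which shares of cells are given below.

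Mpo, the myeloperoxidase gene, was found mostly outside the HSC-like cells, and over all LSK cells its levels overlapped between the groups. It stood at 75.7, 104 and 133 CPM in young 1, 2 and 3, at 53.3, 242 and 186 CPM in aged 1, 2 and 3, and at 48.2, 112 and 87.9 CPM in CASIN 1, 2 and 3. Aged 1 was below both young samples of batch 1 and aged 2 and 3 were above the young sample of batch 2, which gave a log2 difference of -0.76 within batch 1 and 0.69 within batch 2. The pooled difference of 0.21 therefore stood for no common direction.

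In HSC-like cells Mpo was at 11.1, 14.9 and 8.05 CPM in young 1, 2 and 3, from 44, 52 and 11 UMIs. It was at 0.846, 27.6 and 17.3 CPM in aged 1, 2 and 3 (4, 64 and 32 UMIs) and at 3.35, 1.56 and 2.73 CPM in CASIN 1, 2 and 3 (13, 6 and 10 UMIs). CASIN samples lay below young samples without overlap, and the aged samples lay on both sides of them. Mpo fell by 2.36 (log2, SE 0.71, edgeR adjusted p = 0.0423) in CASIN against young mice, and the call was lost in 12 of 21 alternatives, among them the removal of the Fos-led and Dennd5b-led clusters, which left a difference of -0.69. It was also lost without aged 3, without young 1, without young 2 and without each CASIN sample (-2.91 to -1.90). Against aged mice the edgeR difference was -1.87 (SE 0.75, adjusted p = 1 after rounding). Mpo was the only member with an unadjusted edgeR p under 0.05 between CASIN and aged mice in HSC-like cells, where 2.88% of all genes had one. No member, and 0% of all genes, passed between CASIN and aged mice in any of the 4 sets of cells.

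In LMPP-like cells Mpo stood at 84.2, 106 and 158 CPM in young, 38.2, 235 and 180 CPM in aged and 62.9, 66.9 and 80.9 CPM in CASIN 1, 2 and 3. The CASIN samples were all below the young samples, but the difference of -0.66 (SE 0.31, edgeR adjusted p = 0.675) did not pass. The aged samples reached both the lowest and the highest value, with -1.31 within batch 1 and 0.39 within batch 2.

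Ctsg, the cathepsin G gene, was at 53.4, 90.5 and 53.9 CPM in young 1, 2 and 3 over all LSK cells. Its levels there were 103, 117 and 79.2 CPM in aged and 81.1, 195 and 31.4 CPM in CASIN 1, 2 and 3. Young and aged samples overlapped over the batches but not within them, and the log2 difference was 0.93 (SE 0.48, adjusted p = 0.290). In HSC-like cells only 1 to 32 UMIs of Ctsg were counted per sample, with 5.3, 9.19 and 2.93 CPM in young, 1.9, 3.88 and 2.16 CPM in aged and 2.06, 2.08 and 0.273 CPM in CASIN samples. There Ctsg fell by 1.95 in CASIN against young mice (log2, SE 0.51, edgeR adjusted p = 0.0213). This call was lost in 7 of the 18 alternatives with a result for Ctsg, among them those without young 2 (-1.53) and without each CASIN sample (-2.17 to -1.60). The aged samples gave -1.02 (SE 0.53, adjusted p = 0.291). In LMPP-like cells the same gene stood at 51.4, 83.5 and 64.8 CPM in young, 99.3, 93.1 and 79.9 CPM in aged and 141, 156 and 16.3 CPM in CASIN samples, with CASIN 3 far below the others.

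Elane, the elastase gene, varied widely between samples of a group. Over all LSK cells its level was 5.84, 27.7 and 48.7 CPM in young 1, 2 and 3. It was 55.9, 137 and 120 CPM in aged and 5.13, 102 and 55.9 CPM in CASIN 1, 2 and 3. Every aged sample was above every young sample, but the difference of 1.70 (log2, SE 0.86, edgeR adjusted p = 0.284) did not pass. With barcodes over the upper limits kept in, Elane in young 3 was at 373 CPM, above aged 1, 2 and 3 at 83.7, 331 and 159 CPM, so this order turned. Since 96.7% of these UMIs were in committed cells, the values are set by 11 to 34 cells per sample. In those cells Elane ran from 279 CPM in CASIN 1 and 935 CPM in young 1 to 6538 CPM in aged 3, and Prtn3 from 957 CPM in CASIN 1 to 5737 CPM in aged 3.

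S100a8 and S100a9 were high in single samples. S100a8 was at 2.08, 5.02 and 42.9 CPM in young, 23.9, 24.1 and 167 CPM in aged and 1.54, 20.8 and 14.6 CPM in CASIN 1, 2 and 3 over all LSK cells. S100a9 was at 1.85, 1.72 and 43.6 CPM in young, 4.08, 4.37 and 175 CPM in aged and 1.37, 2.87 and 39.1 CPM in CASIN 1, 2 and 3. For both genes the highest value was that of aged 3. There the top cell of S100a8 held 2809 of its UMIs and the top cell of S100a9 held 3099, which were 44.8% and 52.9% of all UMIs of these genes. Whether this was the same cell is not given. Some other samples also rested on 1 cell. For S100a8 the top cell held 718 of 759 UMIs in young 3 and 424 of 439 in aged 1. For S100a9 it held 727 of 772 UMIs in young 3 and 976 of 1086 in CASIN 3. The mature neutrophil list moved with the values of aged 3, at 2.53 to 3.67 CPM in young, 1.71 to 79.8 CPM in aged and 2.91 to 3.96 CPM in CASIN samples. The log2 differences between aged and young mice of 1.95 for S100a8 (SE 0.93, adjusted p = 0.258) and 1.13 for S100a9 (SE 0.99, adjusted p = 0.546) did not pass in edgeR.

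Ms4a3 was at 3.02, 7.69 and 7.45 CPM in young, 12.2, 16.3 and 14 CPM in aged and 5.92, 17.5 and 7.23 CPM in CASIN 1, 2 and 3 over all LSK cells. The aged samples were above the young samples without overlap, and the CASIN samples spread over both. With barcodes over the upper limits kept in, young 3 was at 58.1 CPM, above aged 1, 2 and 3 at 18.3, 38.1 and 19.9 CPM. The difference between aged and young mice was 1.24 (log2, SE 0.46, edgeR adjusted p = 0.158). In LMPP-like cells, from 3 to 31 UMIs per sample, Ms4a3 was at 1.18, 1.56 and 0.854 CPM in young, 3.85, 0.841 and 0.886 CPM in aged and 5.89, 3.87 and 0.415 CPM in CASIN 1, 2 and 3. There the difference of CASIN from young mice was 1.83 within batch 1 and -1.04 within batch 2. Over all LSK cells 5 of the 10 genes (Elane, Ctsg, Prtn3, Ms4a3 and Cebpe) were higher in every aged than every young sample within both batches and 1 (Cebpa) was lower, where 18.9% and 18.2% of all genes were. With barcodes over the upper limits kept in, this order did not hold in batch 2, where young 3 was above aged 2 and aged 3 for all 5 genes. Prtn3, for example, was then at 663 CPM in young 3 against 600 CPM in aged 2 and 405 CPM in aged 3, and Ctsg at 225 against 216 and 108 CPM.

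Cebpa, the factor that starts granulocyte differentiation, was lower in aged and CASIN than in young mice in the 4 tested sets, within both batches. These sets were all LSK cells and the HSC-like, LMPP-like and other uncommitted cells, which are part of them. Over all LSK cells, 18.2% of all genes were lower in every aged than every young sample within both batches. No such share is given for the other sets. In committed cells Cebpa stood at 64.0 CPM in aged 1, above young 1 and 2 at 54.6 and 59.2 CPM. The fall of Cebpa passed the test in HSC-like cells for CASIN mice. Over all LSK cells its level was 28.1, 29.9 and 27.4 CPM in young 1, 2 and 3. It was 11.2, 13.5 and 23 CPM in aged and 16.5, 17.1 and 16.7 CPM in CASIN 1, 2 and 3. No aged or CASIN sample reached a young sample, and the means were 28.5 ± 1.31, 15.9 ± 6.27 and 16.8 ± 0.33 CPM (SD, n = 3). Cebpa was lower in HSC-like than in LMPP-like cells of every sample, and the mix of these classes differed between samples, as given above. The part of that mix in these levels was not tested. The log2 differences from young mice of -0.91 in aged (SE 0.22, edgeR adjusted p = 0.0554) and -0.79 in CASIN mice (SE 0.21, adjusted p = 0.0660) missed the threshold. DESeq2 gave -0.93 for aged mice with an adjusted p of 0.0032. Of 22 alternatives, the difference in aged mice passed in 4 and did not pass in 18. That in CASIN mice passed in 5 and did not pass in 17.

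In HSC-like cells Cebpa was at 10.6, 16.1 and 11 CPM in young 1, 2 and 3, from 42, 56 and 15 UMIs. It was at 1.06, 6.04 and 6.48 CPM in aged (5, 14 and 12 UMIs) and at 3.09, 1.56 and 0.546 CPM in CASIN 1, 2 and 3 (12, 6 and 2 UMIs). Both aged groups lay below all young samples. Cebpa fell by 2.80 in CASIN against young mice (log2, SE 0.53, edgeR adjusted p = 0.00321). Of the 19 alternatives with a result for Cebpa, this call was lost only in the fits without the batch and with a replicate block. The difference in aged mice was -1.79 (SE 0.54, adjusted p = 0.0570), and without aged 1 it was -0.44 (adjusted p = 0.791). Of the 19 alternatives with a result, this difference passed in 9 and did not pass in 10. CASIN and aged mice differed by -1.01 (SE 0.67, adjusted p = 1 after rounding). The LMPP and cycling marker lists were also lower in most aged and CASIN than in young sums of these cells, as given above, and their part in the Cebpa difference was not tested. Pooled over samples, Cebpa had 121 UMIs (10.7 CPM) in the Fos-led, 15 (8.81 CPM) in the Dennd5b-led and 28 (1.74 CPM) in the Tm4sf1-led cluster. The Fos-led cluster was 53.5%, 50.8% and 17.6% of HSC-like cells in young 1, 2 and 3. It was 49.9%, 17.3% and 17.6% in aged and 45.8%, 44.1% and 11.1% in CASIN samples. No Cebpa difference without the Fos-led and Dennd5b-led clusters is given, so their part in the call is not shown.

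In LMPP-like cells Cebpa stood at 39.9, 43.3 and 42.4 CPM in young, 27.4, 19.6 and 37.4 CPM in aged and 28.1, 26.7 and 36.9 CPM in CASIN 1, 2 and 3. Every aged and CASIN sample was below every young sample, by -0.61 in aged (log2, SE 0.20, edgeR adjusted p = 0.260) and -0.45 in CASIN mice (SE 0.19, adjusted p = 0.618). In other uncommitted cells the levels were 22.7, 22.7 and 19.8 CPM in young, 7.43, 8.78 and 16.5 CPM in aged and 14.7, 15.7 and 10.8 CPM in CASIN samples. The groups did not overlap there either, with differences of -0.97 (adjusted p = 0.0938) and -0.70 (adjusted p = 0.145).

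**Figure D3:**
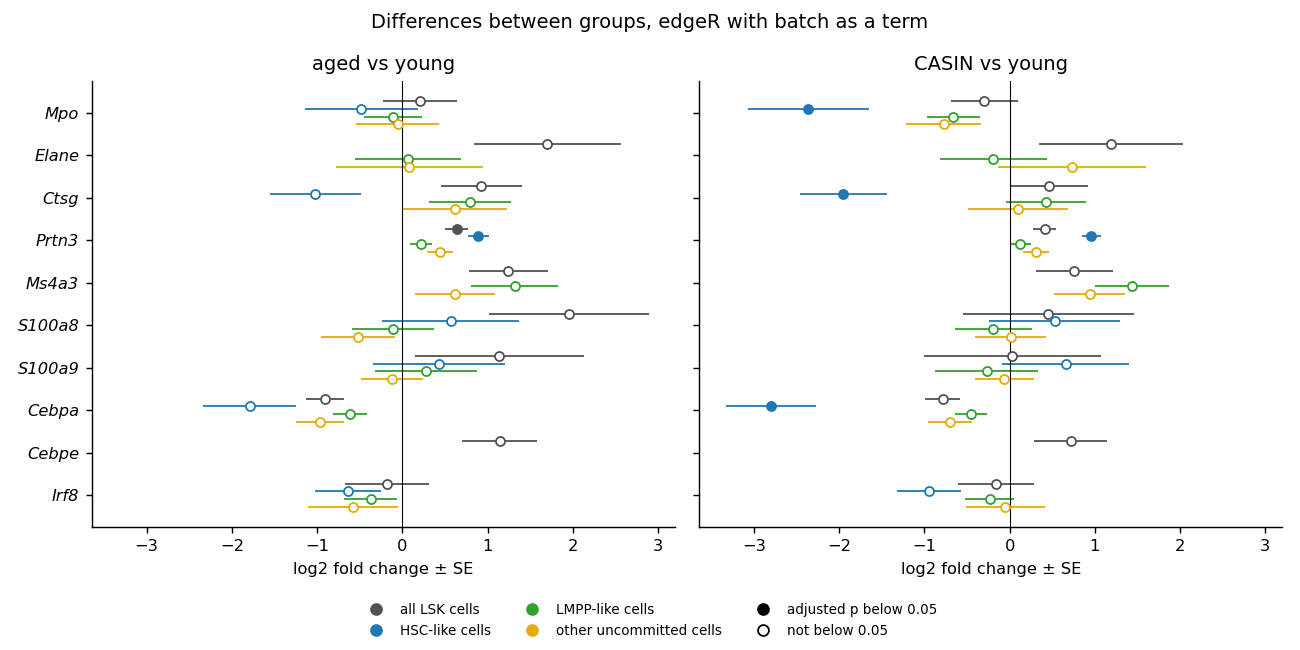
Log2 fold change (x axis) with its SE of each tested member in aged against young mice (left) and CASIN against young mice (right), coloured by set of cells, with filled points for an adjusted p below 0.05 in edgeR. Prtn3 in HSC-like cells stands at 0.89 and 0.96, and Cebpa lies below 0 in every set.

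Cebpe, the later C/EBP factor, was at 0.513 to 0.96 CPM in young, 1.22 to 1.93 CPM in aged and 0.791 to 1.96 CPM in CASIN samples over all LSK cells. The aged samples were above the young samples, and the difference of 1.14 (log2, SE 0.44, edgeR adjusted p = 0.168) did not pass. With barcodes over the upper limits kept in, young 3 was at 4.75 CPM, above aged 1, 2 and 3 at 1.99, 2.00 and 2.44 CPM. Cebpe was too rare for a test in the separate sets of cells.

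Over all LSK cells the levels of Irf8 overlapped between groups, and no comparison passed. The gene stood at 22.3, 40.5 and 28.8 CPM in young 1, 2 and 3. Its levels were 15, 39.1 and 25.6 CPM in aged and 19.1, 47.3 and 17.2 CPM in CASIN 1, 2 and 3. Aged against young mice gave -1.06 within batch 1 and 0.17 within batch 2. The unthinned share of cells with a UMI was 17.3%, 22.3% and 22.3% in young samples. It was 7.05%, 16.9% and 14.1% in aged and 12.1%, 12.9% and 11.7% in CASIN samples, each below every young sample. Depth differed between samples, and these shares were not tested. In HSC-like cells Irf8 was at 4.79, 9.19 and 12.4 CPM in young samples. It was at 2.12, 14.7 and 9.72 CPM in aged and 3.35, 3.12 and 7.65 CPM in CASIN samples. The groups overlapped over the batches, whereas within each batch every CASIN sample was below every young sample (log2 difference -1.11 and -0.70). The difference of -0.95 between CASIN and young mice (log2, SE 0.38, edgeR adjusted p = 0.123) did not pass. In LMPP-like cells the ranges were 32.6 to 57.4 CPM in young, 28.3 to 41.8 CPM in aged and 28.4 to 60 CPM in CASIN samples. These overlapped over the batches, but within each batch every aged sample was below every young sample (-0.61 and -0.51). CASIN samples overlapped with young samples within batch 1 and were lower within batch 2. No comparison of Irf8 passed there.

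Across uncommitted clusters, pooled over samples, Prtn3 was at 858 CPM in the Fos-led, 828 CPM in the Dennd5b-led and 676 CPM in the Tm4sf1-led HSC-like cluster, with an unnamed cluster led by Id1 among them at 718 CPM. It was lowest in the LMPP-like cluster led by Dntt, a lymphoid gene, with 187 CPM. The Fos-led and Dennd5b-led clusters held few cells of batch 2, in which Prtn3 was lower throughout, so cluster and batch cannot be told apart in this order. Mpo was lowest in the Tm4sf1-led cluster, with 3.4 CPM, and was at 14.2 CPM in the Fos-led and 12.3 CPM in the Dennd5b-led cluster. It reached 148 and 136 CPM in the cycling clusters and 139 CPM in the Ccl3-led LMPP-like cluster. Irf8 was highest in the Dntt-led cluster, with 86.9 CPM. These levels are a description across clusters with no test.

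Shares of cells with a UMI were compared after every cell had been thinned to 4000 UMIs, which left out 332 shallower cells, 15 of them HSC-like and 47 LMPP-like. Megakaryocyte-like cells served as the background, and whether they made these transcripts themselves was not tested. The median depth before thinning was 9905 UMIs in HSC-like, 13226.5 in LMPP-like and 12368 in megakaryocyte-like cells. Prtn3 was found in 83.9% of HSC-like (95% exact interval 82.5 to 85.3), 70.0% of LMPP-like and 57.1% of megakaryocyte-like cells (53.0 to 61.2). Without thinning the shares were 93.7%, 89.3% and 81.7%. The intervals cover counting error only. Prtn3 in HSC-like cells was thus above this background, but the background itself was high. At least 3 thinned UMIs of Prtn3 were found in 37.0% of young, 48.3% of aged and 57.2% of CASIN HSC-like cells. These shares pool the cells of both batches, and Prtn3 was lower in batch 2. Before thinning, batch 2 held 119 HSC-like cells in young 3, 225 and 204 in aged 2 and 3 and 398 in CASIN 3. The mix of batches thus differed between the groups, and these shares were not tested.

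Mpo was found in 2.32% of HSC-like, 22.0% of LMPP-like and 4.42% of megakaryocyte-like cells after thinning, and in 5.01%, 39.8% and 12.9% without it. For Ctsg the thinned shares were 0.971%, 11.3% and 1.53% (2.38%, 20.9% and 3.40% without thinning), and for Cebpa 1.79%, 12.3% and 2.04% (5.20%, 33.8% and 7.81%). Pooled over the groups, Mpo, Ctsg and Cebpa in HSC-like cells were at or below the share in megakaryocyte-like cells. In LMPP-like cells they were well above it. Whether their level in HSC-like cells was background was not tested. The calls of these 3 genes in HSC-like cells, given above, thus rest on shares at or below that of megakaryocyte-like cells. There Cebpa was at 11.9, 14.6 and 2.26 CPM in young 1, 2 and 3. It was at 3.28, 3.17 and 12.4 CPM in aged and 1.56, 1.40 and 8.95 CPM in CASIN samples. Mpo was at 13.5, 20.9 and 10.1 CPM in young samples. Its levels were 1.64, 38.0 and 27.3 CPM in aged and 9.35, 1.40 and 17.9 CPM in CASIN samples. For both, CASIN samples were below young samples in batch 1 and above young 3 in batch 2. Ctsg had 0 to 8 UMIs per sample, and the part of these levels in the calls was not tested.

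Irf8 was found in 2.24% of HSC-like, 11.01% of LMPP-like and 0.850% of megakaryocyte-like cells after thinning (5.83%, 27.4% and 3.74% without it). Elane was found in 0.374%, 0.540% and 0.510%, Ms4a3 in 0.187%, 0.727% and 1.53%, S100a8 in 1.38%, 0.769% and 0.850% and S100a9 in 1.34%, 0.727% and 0.850% of these cells, in the same order. Elane, S100a8 and S100a9 were near the background in both HSC-like and LMPP-like cells, and Ms4a3 was below it in HSC-like cells. Cebpe was found in 0.112% of HSC-like and 0.125% of LMPP-like cells and in 0 of 588 megakaryocyte-like cells, which allows a share of up to 0.510%.

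**Figure D4:**
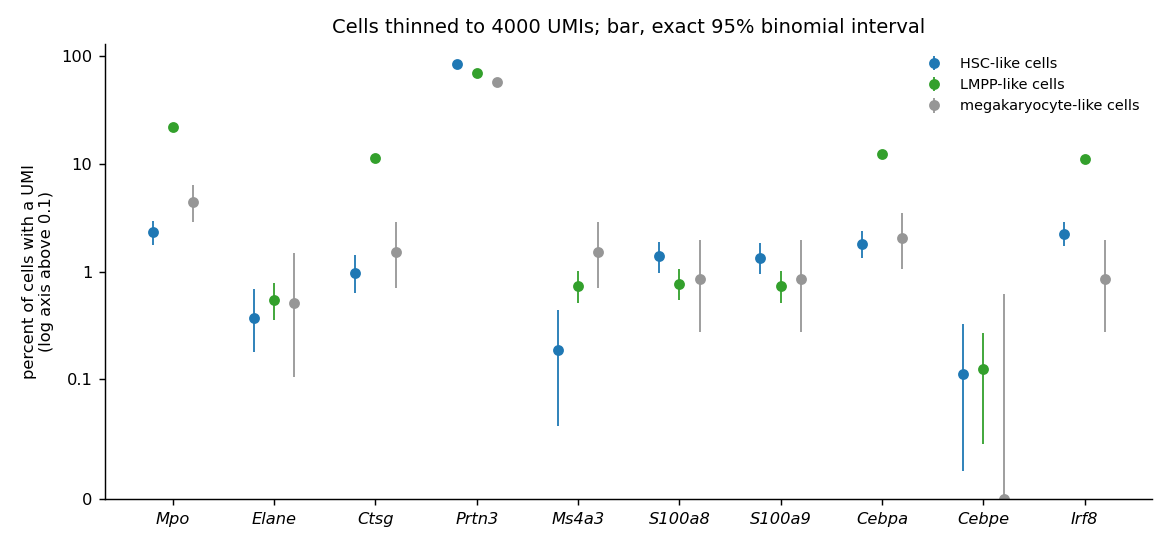
Percent of cells with at least 1 UMI of each member after thinning to 4000 UMIs, pooled over samples, in HSC-like, LMPP-like and megakaryocyte-like cells, with exact 95% binomial intervals, on an axis that is logarithmic above 0.1%. Prtn3 stands at 83.9%, 70.0% and 57.1%, and Mpo at 2.32%, 22.0% and 4.42%.

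Per sample, the thinned share of HSC-like cells with Prtn3 was 83.9%, 88.6% and 42.9% in young 1, 2 and 3. It was 96.8%, 70.5% and 64.3% in aged and 95.4%, 98.0% and 73.2% in CASIN 1, 2 and 3. Every aged and CASIN sample was above every young sample of its batch, and the ranges overlapped over the batches. Over 60 tests of shares (10 genes, HSC-like and LMPP-like cells, 3 comparisons), none passed after adjustment. The smallest two-sided exact permutation p of 0.1 is the smallest that 3 against 3 samples allow. No share could therefore pass at 0.05, and these permutations take no account of the batch. The mean share of HSC-like cells with Cebpa was 3.87% in young and 0.635% in CASIN mice.

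Some members were found together in the same uncommitted cell more often than their separate shares would give. Over 15395 uncommitted cells thinned to 4000 UMIs, Mpo and Ctsg were found together in 460 cells, against an expected number of 165 for independence, a ratio of 2.79. Ctsg and Irf8 were found together in 151 cells against 75.5, and Mpo and Cebpa in 244 against 175. For Mpo and Prtn3 the ratio was 1.05, with 1410 cells against 1340. S100a8 and S100a9 were found together in 27 cells against 1.74. The counts found pool 9 samples and all uncommitted clusters, and no test was made. The expected numbers are not the product of shares pooled over these cells, in which Mpo was found in 1949, Ctsg in 954 and Prtn3 in 11298. A ratio near 1, as for Mpo and Prtn3, is therefore not read in either direction.

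The number of committed cells did not separate the groups. They were 1.26%, 1.54% and 0.916% of cells in young 1, 2 and 3, 1.09%, 1.79% and 1.44% in aged 1, 2 and 3, and 1.26%, 1.62% and 0.703% in CASIN 1, 2 and 3. The groups overlapped, with means of 1.24 ± 0.31%, 1.44 ± 0.35% and 1.19 ± 0.46% (SD, n = 3). In two-sided exact permutation tests the difference was 0.199 percentage points for aged against young mice (p = 0.5), -0.0446 for CASIN against young mice (p = 1) and -0.244 for CASIN against aged mice (p = 0.6). Aged against young mice gave -0.310 percentage points within batch 1 and 0.696 within batch 2.

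The Elane-led cluster was 0.883%, 1.23% and 0.333% of cells in young, 0.512%, 0.715% and 0.575% in aged and 0.450%, 1.00% and 0.290% in CASIN 1, 2 and 3. Its share overlapped between all groups. The Ly6c2-led cluster was 0.372%, 0.318% and 0.583% in young, 0.577%, 1.07% and 0.862% in aged and 0.809%, 0.614% and 0.414% in CASIN 1, 2 and 3. Its mean was 0.837% in aged against 0.424% in young mice (exact permutation p = 0.2), with aged 1 just below young 3. That permutation takes no account of the batch. Within each batch every aged sample was above every young sample, by 0.232 percentage points in batch 1 and 0.384 in batch 2. With a count of the late genes in place of clusters, 117 of 15856 cells had at least 3 of them, and 168 of 16125 when barcodes over the upper limits were kept in.

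**Figure D5:**
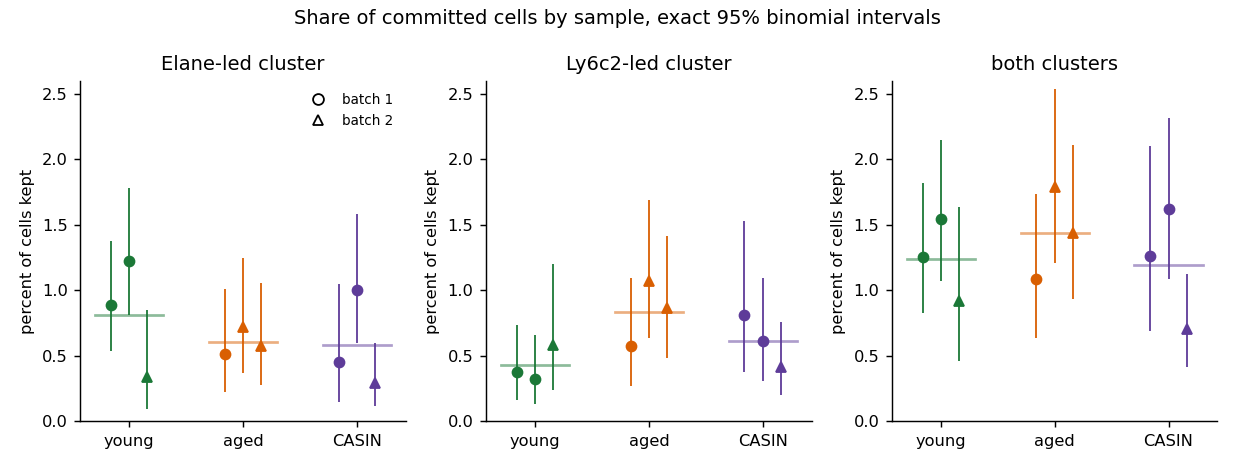
Committed cells as a percent of the cells kept in each sample, for the Elane-led cluster, the Ly6c2-led cluster and both together, with exact 95% binomial intervals, circles for batch 1, triangles for batch 2 and bars for group means. For both clusters together all groups overlap, with samples from 0.703% to 1.79%.

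Other genes of the granulocyte programme were read from fixed lists without the members. In HSC-like cells, 4 of 12 myeloid transcription factors rose in aged over young mice and 1 fell, in edgeR, where 5.84% of all genes were called higher and 2.25% lower. Id2, an inhibitor of helix-loop-helix factors, rose by 1.35 (log2, SE 0.25, adjusted p = 0.00385), Cebpd by 1.19, Klf4 by 1.03 and Cebpb by 0.81. Spi1, which encodes PU.1, the ETS factor named with the promoters above, fell by 1.10 (SE 0.14, adjusted p = 0.000356). In CASIN against young mice Id2 (1.38), Cebpd (1.07) and Cebpb (0.77) rose and Spi1 fell by 1.00. The median of the 12 was 0.06 and 0.17, beside 0.01 and 0.02 over all genes tested.

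Among myeloid growth factor and Fc receptors, 8 of 12 could be tested in HSC-like cells and none rose. In edgeR, 2 of them fell in aged and 4 in CASIN against young mice, where 2.25% and 4.69% of all genes did. Csf2rb, the shared β chain of the GM-CSF, IL-3 and IL-5 receptors, fell by 2.03 (adjusted p = 0.00728 in edgeR) in aged against young mice. In CASIN against young mice Csf2rb (-1.50), Csf2rb2 (-1.33) and Fcer1g (-0.55) were among those that fell. The medians of the 8 were -0.24 and -0.48.

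Of 14 genes for granule protein processing, sorting and inhibition, 13 could be tested in HSC-like cells. In aged against young mice Serpinb6a, a serine protease inhibitor, rose by 1.07 (SE 0.15, edgeR adjusted p = 0.000634), Ctsc, the cathepsin C that activates granule serine proteases, by 0.73 (SE 0.14, adjusted p = 0.00445) and Cd63, a granule membrane protein, by 0.40 (adjusted p = 0.0491). Serpinb1a, an inhibitor of elastase, cathepsin G and proteinase 3, fell by 1.35 (SE 0.30, adjusted p = 0.0118). In CASIN against young mice 4 rose (Serpinb6a 1.24, Ctsc 0.83, Rab27a 0.75, Cd63 0.45) and 2 fell (Serpinb1a -1.54, Lyst -0.52). Of all genes tested there, 7.62% were called higher and 4.69% lower. The genes that process granule proteases and those that inhibit them thus did not move as a block.

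Of 18 other granule cargo genes, 5 could be tested in HSC-like cells. Ctsb, a lysosomal cysteine protease, rose by 0.51 in aged and 0.48 in CASIN against young mice, and Nkg7 (-1.74) and Prss57 (-1.16), another granule serine protease, fell in CASIN mice. In other uncommitted cells, Gfi1, a repressor needed for neutrophils, fell by 1.15 in aged and by 0.84 in CASIN against young mice, while Id2 rose by 1.03 and 1.04. Over all LSK cells Klf4 (1.25), Id2 (1.05), Cebpd (0.61), Ctsc (0.53) and Ctsb (0.45) rose in aged mice, where 4.1% of all genes passed. In CASIN against young mice 1 of 12 transcription factors and 2 of 14 processing genes rose there, where 4.27% of all genes passed. Of the 14 processing genes, 1 also rose in other uncommitted cells of CASIN mice, where 3.47% of all genes passed. No gene of these lists passed in LMPP-like cells, nor between CASIN and aged mice in any set of cells.

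Genes with the pattern most like that of a member were ranked by the Pearson correlation of log2 CPM over 27 sums (9 samples by 3 sets of uncommitted cells) among 5726 genes with a mean of at least 20 CPM. For Prtn3 these were Smim6 (r = 0.96), Mycn (0.96), Mrpl52 (0.96), Mrpl23 (0.95) and Lmo2 (0.95). The values were lower within batch 2 (12 sums), at 0.60, 0.77, 0.41, 0.81 and 0.35, than within batch 1 (15 sums), at 0.92, 0.84, 0.96, 0.85 and 0.89. The order of these 5 genes was thus not the same within both batches.

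For Mpo they were Tm6sf1 (0.94), Hnrnpab (0.92), Ifi27l2a (0.92), Psmb3 (0.92) and Nudt21 (0.91), and for Irf8 they were Satb1 (0.91), Ncf1 (0.91), Il1r1 (0.90), Rgs10 (0.89) and Emb (0.89). Tm6sf1 kept 0.94 within both batches, and Satb1 had 0.94 and 0.88. Satb1 and Emb are among the markers that named the LMPP-like clusters. The sums share samples, batch and depth, so these correlations are given with no p.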

How the data were processed

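Single-cell RNA sequencing of sorted LSK cells gave 1 matrix of UMI counts per library. The deposited counts were made by the authors with Cell Ranger 3.1.0 on mm10, as named in the submitters' processing notes, and are raw counts of UMIs per gene and barcode. All barcodes in the matrices were read and filtered as in the study's methods: at most 10% mitochondrial UMIs, at most 6000 genes, 1000 to 40000 UMIs, a residual limit of 0.4 on genes against UMIs, and genes found in at least 3 cells. Cells were normalised per sample with sctransform 0.4.2, integrated over samples with Seurat 5.3.0 and clustered. The 10 genes and the genes that differed between groups were left out. Integration used 2000 features in place of the study's larger number, and clustering a resolution of 0.8 in place of its lower one. The cell cycle gene sets also differed from the study's. Classes were named from marker lists that held none of the 10 genes.

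Scrublet marked 71 cells (0.448%), too few to be taken as working, so cells were kept and the 3% with the highest score in each sample (602 cells) were left out as an alternative. UMIs were summed per sample and class and tested with edgeR 4.0.16 (quasi-likelihood test, TMM, batch as a term, Benjamini-Hochberg over all genes tested, threshold 0.05). CPM are UMIs scaled to a common total of the class in a sample. Differences between classes were tested with limma 3.58.1 on log2 CPM with a prior count of 2. Fits were tested on simulated data. DESeq2 1.42.0, thinning, stricter filters, other clusters, omission of single samples and a replicate block were alternatives. Within-batch shares of genes rest on genes with at least 10 UMIs in at least 3 samples.

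Depth per sample was 17555578 to 35118707 UMIs after filtering and shares of cells carry exact binomial intervals for counting error. All 10 genes are named, and for Prtn3, Mpo and Irf8 the 5 genes most like them. Of each list, the genes with an adjusted p below 0.05 are named, up to 5 by size. Some calls in CASIN mice over all LSK and other uncommitted cells are given as counts only. An item of the receptor list is not reported here. Members and lists were chosen with earlier results of these data known. Samples with the same number share no stated origin. The analyses used Python 3.11.15 and R 4.3.3.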

Additional observations from a re-analysis of the deposited data

Results flagged for a closer look

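Among barcodes left out by the quality limits, 80 comparisons of the 10 genes (4 sets of barcodes) were screened for higher levels than in young mice. In 3 of them every aged or every CASIN sample was above every young sample. Lower levels were not screened. In barcodes over the upper limits on genes and UMIs, Irf8 was at 98.9 CPM in the lowest CASIN sample, above the highest young sample at 73.7 CPM. In barcodes under the lower UMI limit, Mpo was at 798 CPM in the lowest aged sample, above the highest young sample at 747 CPM, from 16, 41 and 55 UMIs in aged and 38, 26 and 9 UMIs in young samples. In the same barcodes S100a9 was at 30.001 CPM in the lowest CASIN sample, above the highest young sample at 25.3 CPM, which rests on 1 UMI in each CASIN sample and on 1, 1 and 0 UMIs in the young samples and so follows the total UMIs of these barcodes. The share of all genes that stand apart in this way was not computed, so the 3 are given as values only. The cause of these differences was not tested.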

How the results depend on the processing

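In HSC-like cells, Prtn3 passed against young mice in 19 of 21 alternatives in aged and in 19 of 21 in CASIN mice. Cebpa in CASIN mice passed in 17 of the 19 alternatives that gave a result for it. The exceptions were the fit without the batch term (Prtn3 0.36 and 0.90, Cebpa -2.78) and the replicate block. Without the Fos-led and Dennd5b-led clusters Prtn3 gave 0.98 and 1.07. The counts of genes called moved by over 1.5 times in the settings below, and the cause was not tested.

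Against young mice, the genes called in aged and in CASIN mice were 560 and 582 over all LSK cells, 919 and 1398 in HSC-like, 41 and 17 in LMPP-like and 423 and 443 in other uncommitted cells. DESeq2 gave 1135 and 1269, 568 and 901, 124 and 44, and 745 and 907. Without the batch term they were 0 and 0, 10 and 17, 0 and 0, and 0 and 0. With only the groups compared they were 93 and 1778 over all LSK cells, 10 in aged LMPP-like cells, and 18 and 1570 in other cells. At most 5% mitochondrial UMIs gave 323 and 124 over all LSK, 24 and 9 in LMPP-like and 136 (CASIN) in other cells. Thinning gave 423 and 595 in HSC-like and 66 (aged) in LMPP-like cells. Without the Fos-led clusters HSC-like cells gave 330 and 496. With no filter on low counts LMPP-like cells gave 508 and 269. Without the highest Scrublet scores LMPP-like CASIN cells gave 11. Other cells of CASIN mice gave 196 with the differing genes kept in the clustering and 690 without cycling clusters.

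CASIN against aged mice gave 0 genes in all 4 sets. DESeq2 gave 1 in LMPP-like and 2 in other cells, no filter gave 9 in HSC-like and 151 in LMPP-like cells, and omission of the Fos-led clusters gave 1 in HSC-like cells. Leaving out 1 sample in turn gave, for aged against young mice, 31 to 945 genes over all LSK, 218 to 1082 in HSC-like, 19 to 83 in LMPP-like and 6 to 749 in other cells, and for CASIN against young mice 20 to 1584, 646 to 1624, 2 to 36 and 5 to 1393. For CASIN against aged mice it gave 0 to 0, 0 to 12, 0 to 0 and 0 to 43. The fewest came without young 1 or young 2, except in HSC-like cells of aged mice (without aged 1), and young 3 or aged 1 gave the most over all LSK and other cells.

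Samples with the same number deviated together within a batch (r = 0.73 to 0.89), as did samples with different numbers (0.64 to 0.75). Across batches the same number gave -0.61 for young 2 and aged 2 and -0.60 for aged 2 and CASIN 2. The batch was not removed from these deviations, so they cannot show whether samples with the same number share an origin. With the replicate block in place of the batch, genes called against young mice were 0 and 0 over all LSK, 18 and 61 in HSC-like, 0 and 0 in LMPP-like and 0 and 0 in other cells. With the replicate block Prtn3 over CASIN against aged mice turned to 0.12 over all LSK, 0.22 in LMPP-like and 0.29 in other cells, and over aged against young mice to -0.087 in LMPP-like cells. The same fits without the batch gave 0.15, 0.23, 0.26 and -0.039.

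Prtn3 also turned without 1 sample: CASIN against aged mice to -0.067 in HSC-like cells (without CASIN 3), 0.070 in LMPP-like and 0.12 in other cells (without aged 1), and CASIN against young mice to -0.0058 in LMPP-like cells (without young 1). Leaving out 1 sample gave ranges for these of -0.067 to 0.15, -0.15 to 0.070, -0.20 to 0.12 and -0.0058 to 0.30. Mpo over all LSK cells, aged against young mice, turned to -0.075 with the upper limits lifted, -0.21 without cells with 3 late genes, -0.20 without committed clusters and -0.0031 with only these groups (-0.057 to 0.85 over single samples left out).

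The committed share of aged against young mice turned to -0.305 percentage points with the differing genes kept in the clustering (0.0248 to 0.374 over single samples left out). CASIN against aged mice turned to 0.0334 there and to 0.0337 by late genes with the upper limits lifted (-0.456 to 0.00111). CASIN against young mice turned to 0.0648 by late genes, 0.0605 with at most 5% mitochondrial UMIs and 0.246 by late genes with the upper limits lifted (-0.257 to 0.200). No share of cells with a UMI passed in any alternative (0 to 0), but none could. The smallest exact permutation p that all samples allow is 0.1, above the threshold of 0.05, and leaving out 1 sample makes it no smaller. This count therefore does not show whether the shares were stable. The 7 genes whose change differed between classes in CASIN mice were 0 without the batch term, 0 with the replicate block and 0 to 0 without 1 sample. Elane, S100a8, S100a9, Ms4a3 and Cebpe rest on few cells, and Mpo, Ctsg and Cebpa in HSC-like cells on few UMIs.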

Other observations

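Ms4a3, a gene of granulocyte-monocyte progenitors, was found in 7.47% of megakaryocyte-like cells, against 1.00% of HSC-like and 2.14% of LMPP-like cells without thinning. After thinning to 4000 UMIs the shares were 1.53% (95% exact interval 0.702 to 2.89), 0.187% (0.0607 to 0.435) and 0.727% (0.507 to 1.01). Pooled over samples and batches, Ms4a3 was thus above the HSC-like share in a class otherwise used as the background for granule genes. The intervals cover counting error of cells only, and this difference was not tested between samples. Cebpe was found in none of the megakaryocyte-like cells, with or without thinning.

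The spread of UMIs over cells was set side by side for the granule enzymes Mpo and Ctsg and for Cebpa. In LMPP-like cells Mpo was found in 22.0% of thinned cells, where the same mean number of UMIs (0.425 per cell) spread evenly by chance would give 34.6%, and Ctsg in 11.3% where 21.8% would be met. Cebpa had 12.3% against 12.6%. The shares of Mpo and Ctsg were thus further below the value for an even spread than that of Cebpa, a description pooled over samples and clusters and with no test.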
